A study of Mus musculus with 2 samples.

Results

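The 10 genes described here encode receptors for steroid and thyroid hormones, retinoid X receptors and, in the case of Rora, another nuclear receptor. These genes are Nr3c1, Nr3c2, Thra, Thrb, Esr1, Esr2, Rora, Rxra, Rxrb and Rxrg. They were taken by name from the GENCODE mouse annotation (M21, mm10), and all 10 were found among 21884 protein-coding genes with a unique symbol. Around each gene, the DNase-seq peaks and footprints inside the gene body and 10 kb on either side were collected, which gave 105 of 73221 peaks and 343 of 264450 footprints in replicate 1, and 160 of 111105 peaks and 564 of 385637 footprints in replicate 2. A promoter peak is a peak within 1 kb of an annotated transcription start site (TSS), and a distal peak lies farther than that from every TSS of the basic annotation.

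The study measured DNase I accessibility in 1 group of 2 libraries, biological replicates 1 and 2, from the left cerebral cortex of male B6CASTF1/J mice, an F1 hybrid of a laboratory and a wild-derived strain, at 18 to 20 months of age. No treatment, genotype or time series was compared, so every value below is a description with no test between conditions. The labels give both libraries their own tissue sample but 1 donor entry, so the spread between them may be technical. DNase I cuts open chromatin in isolated nuclei, a peak marks a stretch with many cuts, and a footprint is a short stretch protected from cutting, as a bound protein can leave. Footprints outside the called peaks were counted too. Promoter peaks were present in both libraries at 3 of 3 neuronal and 4 of 4 excitatory neuron marker genes and in neither library at 4 genes of other tissues or body regions (Alb, Myh6, Hoxa9 and Hoxd10). Of the other marker genes, 1 of 2 for inhibitory neurons, 1 of 2 for oligodendrocytes, 0 of 2 for astrocytes, 0 of 2 for microglia and 0 of 2 for endothelium had a promoter peak in both libraries.

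Steroid receptors wait in the cell bound to chaperones, and on binding their hormone they act in the nucleus as paired molecules on DNA. Thyroid hormone receptors sit on DNA with or without hormone, mostly paired with a retinoid X receptor (RXR), and change from repressing to activating partners when hormone binds. RORα, the product of Rora, binds DNA as a single molecule and competes for its sites with REV-ERBα, the product of Nr1d1, in the circadian clock. In cortex, Nr3c1 encodes the glucocorticoid receptor that answers high stress hormone levels and Nr3c2 the mineralocorticoid receptor, which binds the same hormone at lower levels.

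All 10 receptor genes had a promoter peak in both libraries, while the height of these peaks ran from near the bottom of all open genes at Esr1 to well above the middle at Nr3c2 and Rxrb. The background was 60.7% of all protein-coding genes in replicate 1, 61.2% in replicate 2 and 58.7% in both. In the longer peak lists the count was also 10 of 10, against 65% and 66% of all genes, and 63.3% in both. Each receptor gene has 2 to 4 start sites, and of the 10300 genes with that number 65.1% and 65.7% were open in replicates 1 and 2. The height of a promoter is given as the deposited signal of its strongest peak, a value on the authors' own scale. Over the receptor genes its median was 2.24 in replicate 1 and 1.33 in replicate 2, against 3.82 and 2.88 over all genes with a promoter peak. Nr3c2 and Rxrb were above those medians in both libraries, and the other 8 receptor genes were below them in both. In whole tissue a low peak in many cells and a higher one in few cells cannot be told apart.

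Among the corticosteroid receptors, Nr3c2 (chr8:76899442-77245012, plus strand) had a single tall peak. It lay at chr8:76901981-76902200 in replicate 1, 88 to 307 bp upstream of the start of Nr3c2-203 and inside an intron of the longer transcript Nr3c2-204. Its signal was 6.15 in replicate 1 and 5.32 in replicate 2, a mean of 5.73 ± 0.587 (SD, n = 2). This put Nr3c2 above 79.0% and 79.9% of open genes. The start of Nr3c2-204 itself carried low peaks, with at most 1.02 and 0.901. The remaining start, that of Nr3c2-201, had no peak in either library, in the shorter or the longer list. The sequence of the tall peak is shown because it is the strongest promoter element of a steroid receptor gene here. It is given 5′ to 3′ on the plus strand of GRCm38.p6 (mm10), the strand of the gene, with the bases inside a footprint of both libraries in capitals.
Nr3c2 peak: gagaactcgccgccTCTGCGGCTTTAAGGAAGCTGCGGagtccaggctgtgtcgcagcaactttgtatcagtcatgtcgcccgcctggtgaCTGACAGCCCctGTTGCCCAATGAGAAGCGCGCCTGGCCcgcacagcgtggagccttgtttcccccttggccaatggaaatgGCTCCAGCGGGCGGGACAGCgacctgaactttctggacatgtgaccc

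The capitals cover 81 of the 220 bp. One of these footprints holds the letters CCAAT, which were also present in 6 of 343 receptor footprints (1.75%) in replicate 1 and 14 of 564 (2.48%) in replicate 2, against 3.03% and 2.89% of all footprints.

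Nr3c1 (chr18:39410545-39519421, minus strand) was open over a wide stretch with no tall peak. Its strongest peak, at chr18:39491601-39491800, had a signal of 3.13 in replicate 1 and 1.80 in replicate 2, a mean of 2.46 ± 0.937 (SD, n = 2), above 40.5% and 31.0% of open genes. Around the starts of Nr3c1-201 and Nr3c1-203, which lie in CpG-rich sequence, every promoter base was listed at a false discovery rate (FDR) of 0.05 or below in replicate 1, and 87.7% in replicate 2. The promoters of Nr3c1 together held 7 peaks in replicate 1 and 6 in replicate 2, and 27 and 22 footprints. Per kb of promoter this was 5.58 and 4.54 footprints, above 95.2% and 83.4% of open genes, whose medians were 2.5 and 3.0. The second promoter, at Nr3c1-202 and Nr3c1-204, had 1 peak of 1.48 in replicate 1 and 1.41 in replicate 2, a mean of 1.45 ± 0.0541 (SD, n = 2).

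Both oestrogen receptor genes had promoter signals below the median of open genes and few promoter footprints. Esr1 (chr10:4611593-5005614, plus strand), which encodes oestrogen receptor α, had the weakest promoter of the 10 genes. Its signal was 0.614 in replicate 1 and 0.627 in replicate 2, above 2.19% and 5.76% of open genes, and the peak lay at the internal start of Esr1-202 and Esr1-203. The 5′-most start, that of Esr1-201 and Esr1-204, had a peak in replicate 2 only, at 0.514, while the longer list of replicate 1 held one of 0.297.

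Esr2 (chr12:76120419-76177259, minus strand), which encodes oestrogen receptor β, had a peak beside its start of 0.614 in replicate 1 and 0.607 in replicate 2. Its strongest peak lay 662 to 821 bp upstream in replicate 1 and had a signal of 2.42 there but 0.981 in replicate 2, a mean of 1.70 ± 1.02 (SD, n = 2). These signals were above 31.1% and 13.7% of open genes. The log2 difference between the libraries, replicate 1 minus replicate 2, was 1.30, against a median of 0.32 over 12840 genes open in both, and 98.7% of those genes had a smaller one. The peak beside the start had like signals in both libraries. The upstream peak is shown because its footprint, in capitals, spells a match to the binding sequence of the insulator protein CTCF (plus strand, chr12:76177921-76178080, GRCm38.p6, 5′ to 3′).
Esr2 upstream peak: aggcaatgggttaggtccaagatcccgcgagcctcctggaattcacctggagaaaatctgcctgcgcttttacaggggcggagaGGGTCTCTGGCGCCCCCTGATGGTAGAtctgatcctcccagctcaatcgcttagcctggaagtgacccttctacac

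Both thyroid hormone receptor genes had promoter signals below the median of open genes. Thra (chr11:98740638-98769006, plus strand), which encodes thyroid hormone receptor α, had a promoter signal of 2.07 in replicate 1, in a peak of 59 bp. In replicate 2 the signal was 1.17, and 4 peaks lay in the promoter or reached into it. The peak of 1.17 ran from 976 to 1475 bp past the nearest start, at the edge of the 1 kb limit. The strongest peaks of the libraries were not the same one: the peak of replicate 2 that overlapped the 59 bp one had 0.861. Of the promoter bases of Thra, 9.74% were listed in replicate 1 and 68.6% in replicate 2. Thrb (chr14:17660261-18038090, plus strand), which encodes thyroid hormone receptor β, had 2.05 in replicate 1 and 1.48 in replicate 2, a mean of 1.77 ± 0.403 (SD, n = 2), at the start of Thrb-201 and Thrb-203. The second start of Thrb, that of Thrb-202 deep inside the gene, had no peak in either shorter list and 1 of 0.3 in the longer list of replicate 2.

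Rora (chr9:68653786-69388246, plus strand) was open at 2 promoters, and the internal one was the stronger. The start of Rora-202, far inside the gene, had a peak of 2.45 in replicate 1 and 1.90 in replicate 2, a mean of 2.17 ± 0.395 (SD, n = 2). The 5′-most start, that of Rora-201, had 1.09 and 1.01, a mean of 1.05 ± 0.0573. The order was the same in both libraries, and the means differed by more than the spread between them. Rora also had many promoter footprints, 15 in replicate 1 and 16 in replicate 2, and its 3.75 and 4.0 per kb were above 76.2% and 73.6% of open genes.

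The retinoid X receptor genes, whose products pair with thyroid hormone receptors and many other nuclear receptors, ranged from a promoter well above the median of open genes at Rxrb to low ones at Rxra and Rxrg. Rxrb (chr17:34031812-34038399, plus strand) had a signal of 7.39 in replicate 1 and 4.52 in replicate 2, a mean of 5.96 ± 2.03 (SD, n = 2), above 89.2% and 71.9% of open genes. Its peak ran from 211 bp upstream to 8 bp past the start in replicate 1 and also spans the start of Slc39a7, a zinc transporter gene on the other strand, 150 bp away. The signal can therefore not be given to either gene alone. The stretch between the genes is shown from that peak, with no annotated exon in it, because its long footprint holds GCATGCGC, the core letters of a site for NRF1, a factor of many housekeeping promoters (plus strand, chr17:34031683-34031811, GRCm38.p6, 5′ to 3′).
Rxrb and Slc39a7: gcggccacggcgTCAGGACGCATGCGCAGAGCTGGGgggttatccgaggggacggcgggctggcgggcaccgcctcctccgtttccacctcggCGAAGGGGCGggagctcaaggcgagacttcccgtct

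GCATGCGC on either strand was in 3 receptor footprints in each library (0.875% and 0.532%), those of Rxrb, Thra and Thrb, against 0.456% and 0.312% of all footprints, and in 2.71% of 32851 RefSeq promoters of 300 bp. Rxra (chr2:27676440-27762957, plus strand) had a promoter signal of 1.22 in replicate 1 and 0.888 in replicate 2, above 13.0% and 11.7% of open genes. Rxrg (chr1:167598384-167639623, plus strand) had 1.08 and 0.941, above 10.2% and 12.7%. A second promoter of Rxrg, at Rxrg-202, had a peak of 0.400 in replicate 2 and none in replicate 1. The internal starts of Rxra-202 and Rxra-203 had no peak in either shorter list, and the one of Rxra-203 had 0.347 in the longer list of replicate 2.

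**Figure D1:**
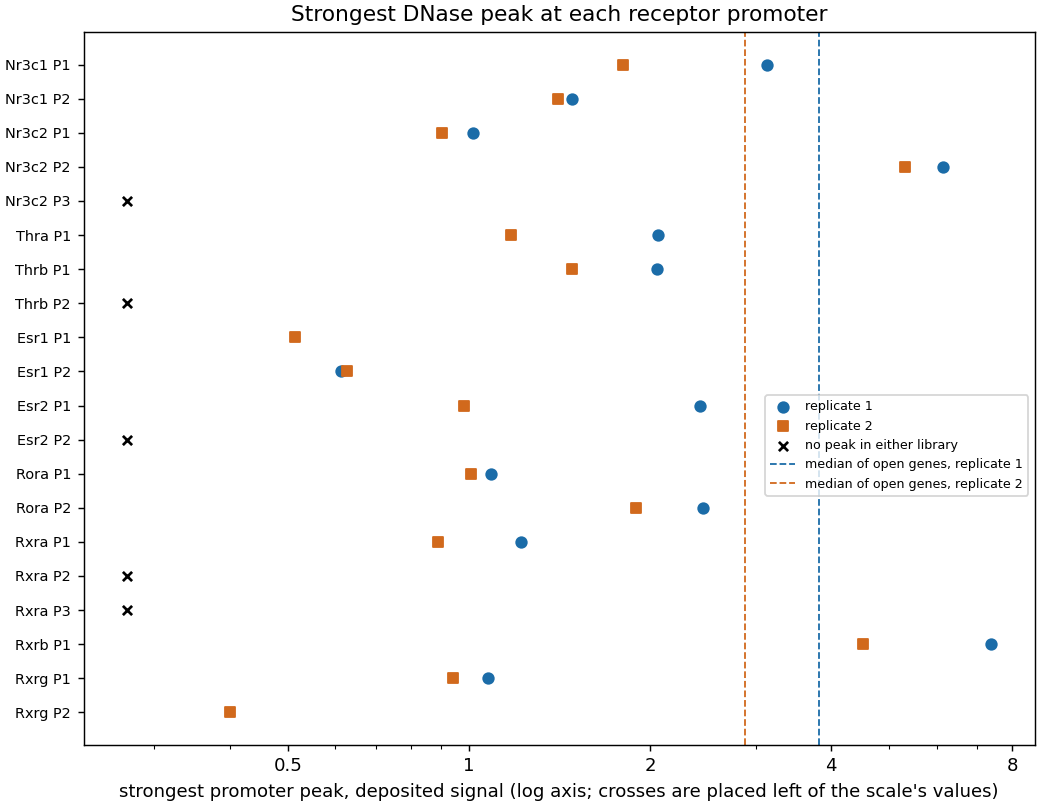
Deposited signal of the strongest DNase peak (log axis) at the 20 promoters of the receptor genes, numbered as in the annotation order used here, with circles for replicate 1 and squares for replicate 2. The promoters of Rxrb and the second one of Nr3c2 lie right of the dashed medians of open genes (3.82 and 2.88), and crosses mark the 5 promoters with no peak in either library.

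Start sites less than 1 kb apart were joined, which gave 20 promoters from 31 start sites. Of these, 13 were open in both libraries, 2 in replicate 2 only and 5 in neither. The promoters also varied in CpG content within 500 bp of the start, given as observed over expected CpG. It was 0.382 to 0.993 at the 13 promoters open in both, 0.368 and 0.432 at the 2 open in replicate 2 only, and 0.119 to 0.288 at the 5 closed ones, so the closed promoters lay below every open one. Over all start sites of protein-coding genes, 8.23% of 13344 with a value under 0.3 were open in both libraries, 56.6% of 8748 with 0.3 to 0.6, and 91.6% of 19346 with 0.6 or more. The closed promoters, crosses in the plot of signal by promoter, could only be alternative starts, because every receptor gene was open in both libraries. In the longer lists 3 of the 20 promoters were closed in both libraries, so the counts above hold for the shorter lists.

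Height and footprint density did not rank the promoters alike. Nr3c1 and Rora ranked far higher by footprints per kb than by signal in both libraries. Nr3c2 held 25 promoter footprints in replicate 1 and 11 in replicate 2, at similar heights, which is 4.04 and 1.78 per kb and above 83.0% and 20.4% of open genes. Most of that difference lay at the start of Nr3c2-204, with 14 footprints in replicate 1 and 1 in replicate 2, although 91.0% and 100% of its promoter bases were listed. Esr1 had 0.248 and 0.992 footprints per kb and Esr2 0.750 in both libraries, all above 6.47% or fewer of open genes.

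**Figure D2:**
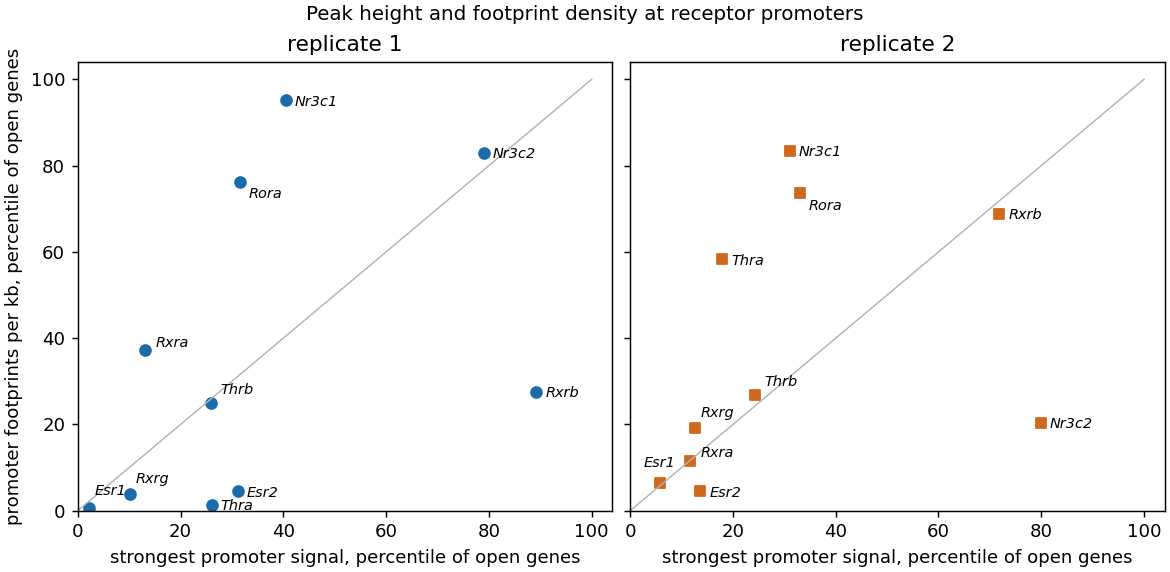
Each point is a receptor gene in replicate 1 (left, circles) or replicate 2 (right, squares), with the percentile of its strongest promoter signal on the x axis and of its promoter footprints per kb on the y axis, both among genes with a promoter peak in that library. Nr3c1 and Rora lie above the diagonal of equal ranks in both libraries, while the footprint percentiles of Thra, Nr3c2 and Rxrb differed most between the libraries.

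Distal peaks were found around all 10 receptor genes in both libraries, while 41.7% of all genes in replicate 1 and 32.6% in replicate 2 had none in their window. The windows of the receptor genes ran from 26.6 kb at Rxrb to 754 kb at Rora, and a longer window can hold more peaks. The comparison with all genes was not matched for window length. Per 100 kb of window, the median over the receptor genes was 2.74 in replicate 1 and 4.21 in replicate 2, and over all protein-coding genes it was 1.73 and 3.18. Thra had 12.4 in replicate 1 and 39.3 in replicate 2, above 97.3% and 99.9% of all genes. Its window reaches into the neighbouring gene Nr1d1, and some of these peaks lie there in both libraries. In replicate 2 some of the peaks in Nr1d1 also overlap each other. Rxra had 8.45 in both, and Rxrg 6.53 in both. Rora, the longest of the genes at 734 kb, held 28 distal peaks in replicate 1 and 40 in replicate 2, which is 3.71 and 5.30 per 100 kb.

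The 4 steroid receptor genes were the lowest of the 10 in replicate 1, and Nr3c1, Esr1 and Esr2 the lowest in replicate 2. Nr3c1 had 1 distal peak in replicate 1 and 2 in replicate 2 (0.776 and 1.55 per 100 kb), and Esr2 had 1 in each (1.30), at different places. Each of the Esr2 peaks overlapped a peak in the longer list of the other library. Esr1 had 0.966 and 2.66 per 100 kb, and Nr3c2 1.37 and 4.65. Thrb had 1.76 and 3.77, and Rxrb 3.76 in both libraries from 1 peak in its short window.

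**Figure D3:**
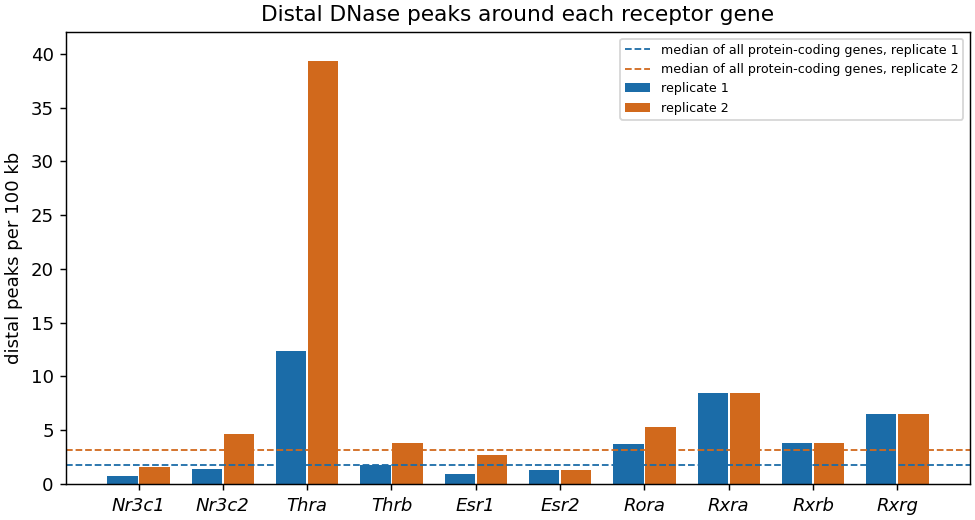
Density of distal DNase peaks (number per 100 kb of the gene's window) for each receptor gene in replicate 1 (left bars) and replicate 2 (right bars). Thra stands highest at 12.4 and 39.3, and the dashed lines are the medians of all protein-coding genes, 1.73 and 3.18.

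Apart from 1 peak in a neighbour of Thra, Nr1d1, the strongest distal peaks found in both libraries lay at the thyroid hormone receptor and RXR genes. Inside an intron of Thra, a peak at chr11:98747481-98747660 had 5.25 in replicate 1 and 5.01 in replicate 2, a mean of 5.13 ± 0.170 (SD, n = 2). In Rxra, an intronic peak at chr2:27758501-27758660 had 5.41 and 3.98, a mean of 4.70 ± 1.01. Near Rxrg, an intergenic peak at chr1:167645001-167645180 had 5.23 and 2.58, a mean of 3.90 ± 1.87. Upstream of Thrb, a peak at chr14:17659121-17659280 had 3.86 and 3.46, a mean of 3.66 ± 0.285, and it lies within 1 kb of the start of Thrb-205, a transcript outside the basic annotation.

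Distal peaks of the other receptor genes were weaker. In Rora the strongest shared one, at chr9:69368181-69368360, had 2.90 in replicate 1 and 1.43 in replicate 2, a mean of 2.17 ± 1.04 (SD, n = 2). Rxrb had an intronic peak of 2.39 and 1.23, a mean of 1.81 ± 0.825. In Esr1 the strongest shared peak had 0.930 and 1.15, a mean of 1.04 ± 0.154, and in Nr3c2 it had 1.11 and 0.914, a mean of 1.01 ± 0.137. For both genes this was close to the library medians over all peaks, 1.24 and 0.894. Nr3c1 had a shared peak of 0.812 and 0.814, which lies on the start of Nr3c1-209, also outside the basic annotation. Esr2 had no distal peak shared by the shorter lists of both libraries. Some distal peaks were in the shorter list of 1 library only. Taking only the strongest of each gene, the highest were 1.72 at Thra, 1.47 in a 3′ untranslated exon of Nr3c1, 1.22 at Thrb and 1.10 at Nr3c2, all in replicate 2, and 1.41 at Rora in replicate 1. Each of these overlapped a peak in the longer list of the other library. Further peaks of replicate 2 at Thra, with 1.70 and 1.41, overlapped none there. The Thra peak of 1.72 lies on the start of Thra-205, which is also outside the basic annotation.

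Several of these peaks carry a footprint with the core of the CTCF site, searched on both strands as CA, any 2 bases, AG, any 2 bases and GGC. CTCF is a DNA-binding protein that marks insulators and the ends of chromatin loops. The following peaks are shown because the same footprint was called in both libraries, in capitals with any other shared footprint, on the plus strand of GRCm38.p6, 5′ to 3′. They lie at chr14:17659121-17659280 (Thrb), chr9:69368181-69368360 and chr9:69296541-69296680 (both in introns of Rora) and chr1:167645001-167645180 (Rxrg).
Thrb upstream peak: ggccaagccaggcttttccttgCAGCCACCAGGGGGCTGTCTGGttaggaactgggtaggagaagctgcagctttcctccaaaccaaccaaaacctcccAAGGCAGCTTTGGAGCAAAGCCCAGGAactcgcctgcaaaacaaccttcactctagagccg
Rora intron peak 1: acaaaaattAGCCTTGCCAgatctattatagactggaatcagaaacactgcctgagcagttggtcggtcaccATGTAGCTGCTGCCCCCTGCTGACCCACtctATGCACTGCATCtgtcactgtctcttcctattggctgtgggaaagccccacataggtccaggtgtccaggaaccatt
Rora intron peak 2: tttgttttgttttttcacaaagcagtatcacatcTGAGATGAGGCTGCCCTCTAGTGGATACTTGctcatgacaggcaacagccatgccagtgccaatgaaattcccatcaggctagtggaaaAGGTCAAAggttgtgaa
Rxrg downstream peak: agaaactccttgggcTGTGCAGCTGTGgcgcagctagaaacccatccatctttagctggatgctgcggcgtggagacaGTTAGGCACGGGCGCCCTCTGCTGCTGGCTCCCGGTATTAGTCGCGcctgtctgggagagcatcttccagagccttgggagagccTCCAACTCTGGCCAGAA

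In these 4 and in the upstream peak of Esr2 the capitals include a run such as CACCAGGGGGC in the peak of Thrb. Its share at the receptor genes was close to that of the series. It was in 16 of 343 of their footprints with 5 bp on each side (4.66%) in replicate 1 and 16 of 564 (2.84%) in replicate 2, against 4.82% and 3.09% of all footprints. In the central 150 bp of peaks it was in 18 of 105 (17.1%) and 16 of 160 (10%), against 17.9% and 12.3% of all peaks.

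Thra was the receptor gene whose accessible share differed most between the libraries. Its window held 6 distal peaks in replicate 1 and 19 in replicate 2, and 40 and 116 footprints. Within the gene body 4.39% of bases in replicate 1 and 29.4% in replicate 2 were listed at an FDR of 0.05 or below, a ratio of 6.69, larger than in 98.9% of the genes of 5 kb or more with listed bases, whose median ratio was 1.44. Among the other 9 receptor genes the ratio ran from 0.903 at Esr2 to 3.15 at Esr1. With the lists held to the same number of strongest peaks, Thra still had 6 and 19 distal peaks, while Nr3c2 had 5 and 5 and Rora 28 and 26. In the longer lists Thra had 8 and 26.

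The peaks of replicate 1 at Thra were all found again. All 8 of its peaks in the window overlapped a peak of replicate 2, and the signals of the strong ones were alike, while 8 of 24 peaks of replicate 2 had a partner. The added peaks of replicate 2 were lower, from 0.727 to 1.72 for the distal ones. The strongest distal peak in the window belongs to a neighbour: it had 8.10 in replicate 1 and 8.81 in replicate 2, a mean of 8.46 ± 0.499 (SD, n = 2). It lies in an intron of Nr1d1, whose gene body overlaps the end of Thra by 1075 bp on the other strand. The promoter peak of Nr1d1, also in the window, was stronger, with 10.1 in replicate 1 and 9.22 in replicate 2. What gives replicate 2 its wider accessibility at Thra was not tested.

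**Figure D4:**
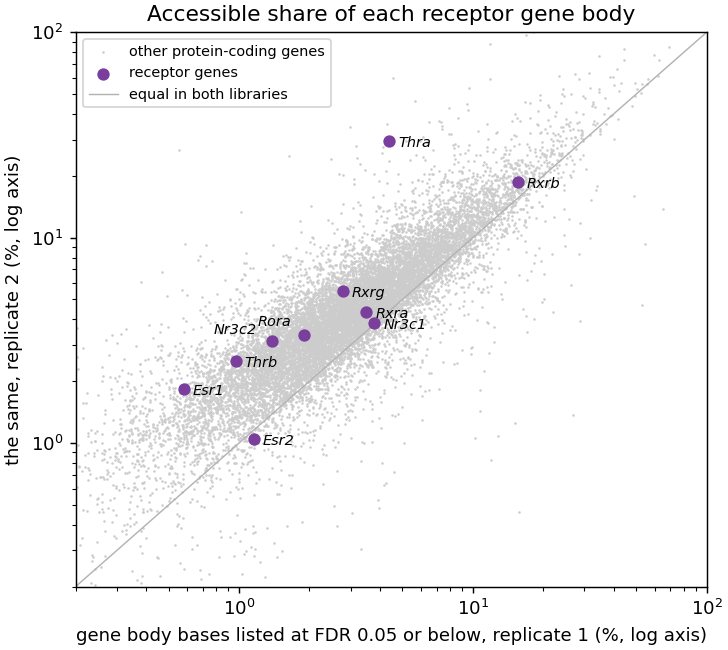
Percent of gene body bases listed at an FDR of 0.05 or below in replicate 1 (x axis) and replicate 2 (y axis), on log axes, for the receptor genes (large points) and other protein-coding genes of 5 kb or more (grey, those under 0.2% in either library not drawn). Thra, at 4.39% and 29.4%, stands apart above the line of equal values.

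**Figure D5:**
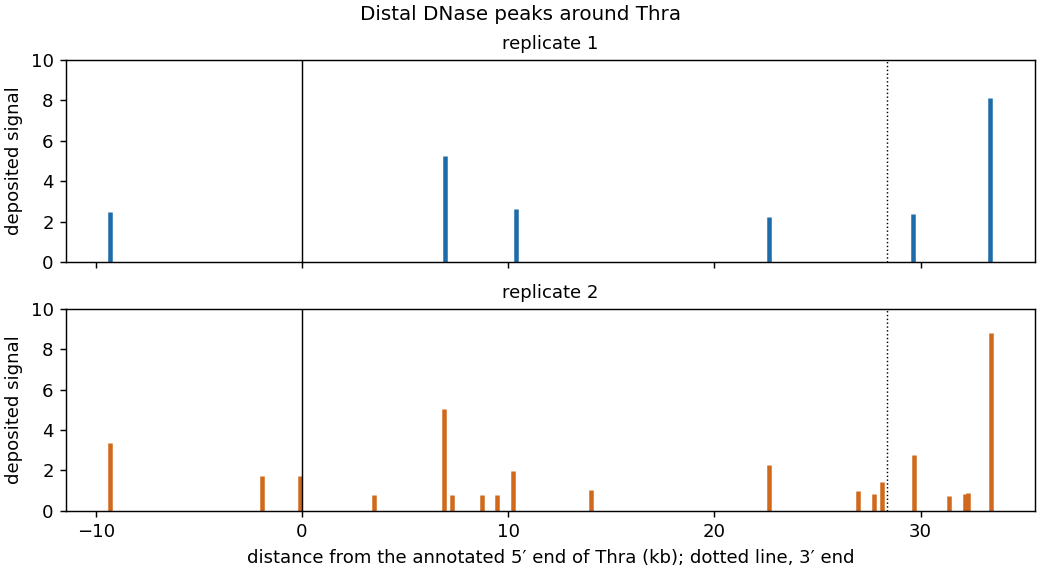
Deposited signal of each distal DNase peak around Thra against its distance from the annotated 5′ end of the gene in kb, in replicate 1 (top) and replicate 2 (bottom), with the gene's 3′ end dotted. The 6 peaks of replicate 1 recur in replicate 2 at similar heights among 13 lower ones.

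The intronic peak of Thra and a stretch of the Nr1d1 peak are shown because both hold CACGTG, the E-box that the clock proteins CLOCK and BMAL1 bind, inside a footprint of both libraries. The footprint before it in Thra also holds GCGCATGC, the NRF1 letters on the other strand. Coordinates are chr11:98747481-98747660 and chr11:98773844-98773909 on the plus strand of GRCm38.p6, 5′ to 3′.
Thra intron peak: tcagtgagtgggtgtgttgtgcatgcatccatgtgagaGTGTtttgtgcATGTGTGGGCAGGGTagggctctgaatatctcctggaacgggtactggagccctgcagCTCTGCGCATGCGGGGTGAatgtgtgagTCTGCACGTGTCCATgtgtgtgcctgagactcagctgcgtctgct
Nr1d1 intron stretch: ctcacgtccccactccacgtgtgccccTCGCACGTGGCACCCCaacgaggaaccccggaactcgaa

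CACGTG was in 4 receptor footprints (1.17%) in replicate 1 and 6 (1.06%) in replicate 2, against 0.984% and 0.978% of all footprints, and all but 1 of the receptor ones lay in the Thra window.

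The peaks of the receptor genes recurred about as often as those of the whole series. Of their peaks, 91 of 105 in replicate 1 (86.7%) and 90 of 160 in replicate 2 (56.3%) overlapped a peak of the other library by at least 1 bp, against 85.8% and 56.1% of all peaks. Near start sites the shares were 87.2% and 82.9%, against 83.9% and 77.8%, and for distal peaks 86.4% and 47.1%, against 86.9% and 49.1%. Rora stood lowest among the genes with more than 10 peaks in replicate 1, with 25 of 35 shared, while all 11 peaks of Nr3c2 and all 11 of Thrb were.

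The letters that the receptors themselves bind were in few footprints of their own genes, as in the series as a whole. The half-site of steroid receptors other than the oestrogen receptors, AGAACA, was in 3 of 343 receptor footprints with 5 bp on each side (0.875%) in replicate 1 and 7 of 564 (1.24%) in replicate 2, against 1.01% and 1.22% of all footprints. The half-site AGGTCA, used by oestrogen, thyroid hormone, retinoid X and ROR receptors, was in 4 (1.17%) and 2 (0.355%), against 0.622% and 0.553%. Either was in 7 (2.04%) and 9 (1.60%), against 1.63% and 1.77%. Full sites were searched as inverted repeats of AGAACA or AGGTCA with 3 bases between, direct repeats of AGGTCA with 1 or 4 bases between, and AGGTCA after AANT, and none was in a footprint or the central 150 bp of a peak at the receptor genes in either library. They were rare in the whole series too: the site of AGGTCA after AANT was in 83 of 73221 peak centres in replicate 1 (0.113%) and 194 of 111105 in replicate 2 (0.175%), and each of the other full sites in at most 10. With 105 and 160 peaks at the receptor genes, their absence there says nothing particular to these genes. Most half-sites were in Rora, and 3 were in footprints of both libraries.

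Those 3 are the AGGTCA in the second Rora peak above, an AGAACA in another Rora intron and an AGAACA in the strongest intronic peak of Rxra. The last 2 are shown because they place a steroid receptor half-site at a footprint of both libraries. It is not the half-site used by the products of Rora and Rxra. Bases in footprints of both libraries are in capitals (plus strand, GRCm38.p6, 5′ to 3′, chr9:68927538-68927623 and chr2:27758547-27758632). The Rora site lies in a peak of replicate 2 with a signal of 2.18 and just before one of 1.24 in replicate 1, into which its footprint reaches. In Rxra the half-site is on the minus strand, and its last 3 plus-strand letters lie inside the footprint.
Rora AGAACA stretch: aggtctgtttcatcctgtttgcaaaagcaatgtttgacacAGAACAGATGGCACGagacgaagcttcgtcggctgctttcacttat
Rxra AGAACA stretch: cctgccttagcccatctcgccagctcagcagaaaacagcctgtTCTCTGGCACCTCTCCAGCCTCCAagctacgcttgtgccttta

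Other letters common in promoters were counted the same way, chosen after the printed peaks had been read. GGGCGG, a box for SP and KLF factors, was in 31 receptor footprints (9.04%) in replicate 1 and 36 (6.38%) in replicate 2, against 6.57% and 4.81% of all footprints. ATGGCGGC, the core of a YY1 site, was in 4 (1.17%) and 3 (0.532%), against 0.238% and 0.154%, at Nr3c1, Rxrb and Nr1d1.

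Genes that act with the receptors are given as counts beside the 58.7% of all protein-coding genes that were open in both libraries. Of 38 other nuclear receptor genes, 24 had a promoter peak in both libraries and 8 in neither, namely Nr1h3, Nr1h4, Nr1i3, Hnf4a, Nr2e3, Nr5a1, Nr0b1 and Nr0b2. The strongest were Esrra, an oestrogen-related orphan receptor, with 10.0 in replicate 1 and 12.5 in replicate 2 (11.3 ± 1.77, SD, n = 2), and Nr1d1 with 10.1 and 9.22 (9.66 ± 0.631). Pgr, the progesterone receptor gene, had 1.23 in replicate 1 and 1.25 in replicate 2.

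Chaperones and coregulators were open at 13 of 14 genes in both libraries. The strongest were Ncoa2, a coactivator, with 9.89 in replicate 1 and 8.07 in replicate 2 (8.98 ± 1.28, SD, n = 2), and Hsp90ab1, the chaperone that holds steroid receptors, with 10.1 and 7.01 (8.56 ± 2.20). Of 12 known target genes of these receptors, 10 were open in both and only Pcp2, a gene of cerebellar Purkinje cells, was open in neither. Per1, a clock gene that glucocorticoids induce, had 8.66 and 11.7 (10.2 ± 2.17), and Klf9, a target of glucocorticoid and thyroid hormone, 6.41 and 5.94 (6.18 ± 0.335).

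Of 11 annotated genes of ligand metabolism and transport, 7 were open in both libraries and 4 in neither, also beside the 58.7% of all genes. The median signal of the open ones was 0.706 in replicate 1 and 0.754 in replicate 2, against 3.82 and 2.88 over all open genes. Srd5a1, which reduces steroids such as testosterone, had 7.12 in replicate 1 and 9.47 in replicate 2 (8.29 ± 1.66, SD, n = 2), and Hsd11b1, which regenerates active glucocorticoid, had 3.44 and 4.02 (3.73 ± 0.405). Without a peak in either were Cyp19a1, the aromatase that makes oestrogen, the deiodinases Dio1 and Dio3, and Slco1c1, a thyroid hormone transporter of brain capillaries. Dio2, the deiodinase that makes active thyroid hormone in brain, had 0.620 in replicate 1 and 0.707 in replicate 2.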

How the data were processed

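DNase-seq calls of 2 libraries were used as deposited, on mm10 per the notes deposited with the files. The authors called 2 peak lists, footprints and per-base q-values (false discovery rates, listed up to 0.05) in each library separately. The deposited signal is 1 value per peak on a scale that no source used here explains. The deposited footprint score was constant and only positions were used. For the aligner, callers and thresholds, names and settings were not given in the sources used here. Reads of a hybrid strain were set against a C57BL/6J reference, so divergent CAST alleles may be missed.

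The shorter list was the main one. Its peaks can overlap each other (634 in replicate 1 and 1413 in replicate 2 overlapped an earlier one). Without read totals the depth is unknown, and no counting interval is given. Overlaps, TSS distances and motif searches were computed with Python 3.11.15 and numpy 2.4.6 and tested on simulated intervals, and figures used matplotlib 3.10.9. Signals were ranked among genes with a promoter peak. Sequences are from RefSeq's GRCm38.p6, where 8 of the 10 genes matched the promoter table. All 10 receptor genes were named, with their promoter peaks, their strongest distal peak in both libraries and in 1 library only. From the pathway lists, the strongest 2 promoters and all genes open in neither library were named, and Pgr and Dio2 were added after their values were seen. Sts was not in the annotation used here. The receptor genes, lists and motifs were chosen with earlier results of these data known. Full-annotation starts, promoter footprints and listed bases relative to open genes, and the motifs other than the receptor sites were added after seeing the data.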

Additional observations from a re-analysis of the deposited data

How the results depend on the processing

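No paired analysis was possible because there is 1 group. All 10 receptor genes kept a promoter peak in both libraries under the longer lists, 500 bp or 2 kb from a start, protein-coding or full-annotation starts, and in each library alone. With the same number of strongest peaks 9 remained (Esr1 lost in replicate 2), and with peaks at or above the library median 7 (Esr1 and Rxra lost in both libraries, Rxrg in replicate 1). The median of 3.47 distal peaks per 100 kb (mean of both libraries) became 5.40 with the longer lists and 1.62 at or above the median signal, while that of all genes, 2.45, became 4.23, 0.256, and 0 without the 10 kb extension. With the same number of strongest peaks the medians were 2.79 for receptor genes and 1.75 for all genes, so the order held. The median of 2.12 footprints per 10 kb became 1.51 inside peaks and 1.60 at 8 bp or more, and that of 6.75 promoter footprints became 5.5 at 8 bp or more. The share with a half-site, 1.82%, became 0.792% without the added 5 bp. Left with a single library, medians ran from 2.74 to 4.21 distal peaks per 100 kb, 1.78 to 2.45 footprints per 10 kb, 6 to 7.5 promoter footprints and 1.33 to 2.24 promoter signal. The shared percent, as a mean of both libraries, stayed between 55.2 and 82.6 over its alternatives. In single libraries it ran from 43.75 in replicate 2 to 97.1 in replicate 1. With 2 libraries no difference between genes or libraries was tested.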

Other observations

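Some distal peaks of the receptor genes lie within 1 kb of starts of transcripts that the basic annotation leaves out. This held for 8 of 66 distal peaks in replicate 1 and 9 of 119 in replicate 2. The share over all distal peaks of the series was not counted, so these counts say nothing particular to the receptor genes. One is an intronic peak of Rxra at the start of Rxra-205, with 2.41 in replicate 1 and 2.39 in replicate 2 (2.40 ± 0.0136, SD, n = 2). It is stronger than the annotated promoter of Rxra, which had 1.22 and 0.888. Thrb-205, a protein-coding transcript, starts within 1 kb of the peak of 3.86 and 3.46 upstream of Thrb, also above the promoter signal of 2.05 and 1.48. At Thra, the start of Thra-203 inside the gene had a peak of 1.03 within 1 kb in replicate 2 and none in replicate 1. The start of Thra-205, at the annotated 5′ end of the gene, had a peak of 1.72 in replicate 2, above the promoter signal of 1.17 there. In replicate 1 it had a peak in the longer list only.

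The window of Per1, a glucocorticoid target, had a density of 46.1 distal peaks (per 100 kb) in replicate 1 but 20.1 in replicate 2, and that of Thra had 12.4 and 39.3, so their order differed between the libraries.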
